A study of Mus musculus with 12 samples.

Results

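The mitochondrially encoded genes were followed in bone marrow neutrophils of wild-type mice (genotype WT in the labels) kept for 24 h in culture with either PBS, the control, or a primary bile acid. The genes were chosen by position alone, as the rows of the deposited count table that lie on chromosome MT. They numbered 36 of 29737 genes, namely 13 mRNA genes, 2 rRNA genes and 21 tRNA genes, and all 36 had the same start, end and strand as in GENCODE vM21 (GRCm38). A further tRNA gene of that annotation, mt-Td, was not analysed here. The bile acids were taurocholic acid (TCA) at 200 μM, glycocholic acid (GCA) at 200 μM and tauro-β-muricholic acid (Tβ-MCA), for which the labels give 10 μM and the methods 200 μM. Each of the 4 groups had 3 samples, with replicate numbers 3, 5 and 6 for PBS and 3, 4 and 5 for each bile acid, and nothing states that the samples came from separate mice, so the p-values measure the spread between these samples only. The cells were purified with magnetic beads, and the labels describe them as Ly6G+. All 12 neutrophil marker genes of the list used were detected in every group, with a summed level of 39780 to 58287 CPM (counts scaled to a library of fixed size).

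The mitochondrial genome is a small circular DNA, present in many copies per cell, that is transcribed from both strands into long precursors. The tRNAs punctuate these precursors and are cut out to release the mRNAs and rRNAs. Its mRNAs encode core subunits of respiratory complexes I, III and IV and of the ATP synthase (complex V), while all other subunits, and the whole of complex II, are encoded in the nucleus. Neutrophils are known for few mitochondria and for drawing most of their ATP from glycolysis. The libraries were made from total RNA with a stranded mRNA kit, so the rRNA and tRNA values are those left in an mRNA library.

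Several of these genes have a near-identical stretch in the nuclear genome, and their levels cannot be read without it. A block on the minus strand of chromosome 1 (GRCm38) holds 7 annotated pseudogenes that copy mitochondrial genes. Over their whole length, Gm28661 matched mt-Co2 at 681 of 681 bases, Gm10925 matched mt-Atp6 at 678 of 678, Gm28437 matched mt-Co3 at 783 of 783 and Gm10222 matched mt-Nd4l at 294 of 294. Gm28439 matched the first 876 bases of mt-Nd4 without a difference. Gm28438 differed from mt-Nd3 at 1 of 345 bases, and Gm29216, which covers bases 1054 to 1545 of mt-Co1, differed at 6 of 492. The starts of the 2 pairs that differ are printed to show how few bases separate a mitochondrial row from its copy (GENCODE vM21 transcripts, GRCm38, 5′ to 3′, differing bases in capitals), for mt-Nd3 at MT:9459-9518 on the plus strand, Gm28438 at chr1:24613060-24613119 on the minus strand, mt-Co1 at MT:6381-6440 on the plus strand and Gm29216 at chr1:24616138-24616197 on the minus strand.
mt-Nd3: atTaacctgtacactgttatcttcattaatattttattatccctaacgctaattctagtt
Gm28438: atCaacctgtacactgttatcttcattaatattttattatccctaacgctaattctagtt
mt-Co1: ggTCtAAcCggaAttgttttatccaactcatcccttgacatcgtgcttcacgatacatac
Gm29216: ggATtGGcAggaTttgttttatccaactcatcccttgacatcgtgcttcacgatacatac
Counted from the first base of each mitochondrial gene, the difference in the mt-Nd3 pair is T3C, and those in the mt-Co1 pair are T1056A, C1057T, A1059G, A1060G, C1062A and A1066T. No base separates the next pairs. Their first 60 bases are shown because one pair was counted almost only on its nuclear row and the other almost only on its mitochondrial row (start codons in capitals), for mt-Atp6 at MT:7927-7986, Gm10925 at chr1:24614592-24614651, mt-Nd4l at MT:9877-9936 and Gm10222 at chr1:24612641-24612700.
mt-Atp6: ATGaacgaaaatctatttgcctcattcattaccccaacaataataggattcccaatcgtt
Gm10925: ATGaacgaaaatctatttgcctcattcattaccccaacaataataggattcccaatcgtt
mt-Nd4l: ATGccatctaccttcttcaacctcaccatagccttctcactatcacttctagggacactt
Gm10222: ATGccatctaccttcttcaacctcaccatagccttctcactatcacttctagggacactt

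The counts of these pairs were split very unevenly. For mt-Co2, mt-Atp6 and mt-Co3, which encode a subunit of complex IV, a subunit of complex V and a further subunit of complex IV, on average 0.736%, 0.508% and 0.323% of the pair's counts stood on the mitochondrial row. In every sample the nuclear row of these pairs held at least 10255 counts and the mitochondrial row at most 250. For mt-Nd4l and mt-Nd4, subunits of complex I, the split ran the other way, with 98.5% and 99.5% on the mitochondrial row. For mt-Co1 it was 71.0% and for mt-Nd3, a small subunit of complex I, 39.8%, with 57 to 116 counts on the mitochondrial row and 96 to 177 on the copy. Among all annotated transcripts, 50-base windows shared with another gene covered 100% of mt-Co2, 99.9% of mt-Co3, 99.5% of mt-Atp6, 98.8% of mt-Nd4l, 98.0% of mt-Nd3, 62.2% of mt-Nd4 and 51.1% of mt-Co1. The share was 8.19% for mt-Nd2, 7.61% for mt-Nd5 and 1.04% for mt-Rnr2, and it was 0% for mt-Nd1, mt-Nd6, mt-Cytb, mt-Atp8 and mt-Rnr1. Only annotated transcripts were searched. The stretch of chromosome 1 between Gm28661 and Gm10925, which copy the mRNA neighbours of mt-Atp8, was not read. A copy of mt-Atp8 there would have been missed, and its level is uncertain for that reason. How the counting treated reads that map to more than 1 place is not given in the sources used here, so the values of mt-Co2, mt-Atp6, mt-Co3, mt-Nd3, mt-Nd4l, mt-Nd4 and mt-Co1 are uncertain as levels of the mitochondrial gene alone.

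Levels were compared between genes as RPKM (reads scaled by gene length and by the counted reads of the sample), as deposited, with the SD over the 12 samples. The 13 mRNAs fell into 2 ranges. The highest on the mitochondrial rows was mt-Nd6 of complex I, at 898 ± 124 RPKM, rank 35 of all 29737 genes. As a gene on the minus strand, mt-Nd6 may hold reads of the other strand, since use of the strand in counting is not stated. It was followed by mt-Nd4l at 732 ± 122, mt-Co1, the catalytic subunit of complex IV, at 584 ± 44.8 and mt-Cytb, the only mitochondrially encoded subunit of complex III, at 537 ± 53.4. Then came mt-Nd5 at 449 ± 37.7, mt-Nd1 at 422 ± 64.0, mt-Nd2 at 298 ± 19.8 and mt-Nd4 at 285 ± 31.7 RPKM. The ranges over the 12 samples overlapped between each of these genes and its neighbour in the order, least so for mt-Nd1 (308 to 511 RPKM) and mt-Nd2 (253 to 322 RPKM). The other 5 mRNAs, mt-Co2, mt-Atp8, mt-Atp6, mt-Co3 and mt-Nd3, lie side by side on the genome between mt-Co1 and mt-Nd4l and stood between 1.57 ± 0.367 RPKM for mt-Co3 and 10.1 ± 3.06 RPKM for mt-Atp8. The rRNAs were at 38.3 ± 3.65 RPKM for mt-Rnr1 (12S) and 59.8 ± 4.30 RPKM for mt-Rnr2 (16S).

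With the counts of the copy added to its gene, a sum chosen after seeing the data, 3 of the low genes reached the upper range. The summed RPKM was 1498 ± 209 for mt-Atp6, 907 ± 93.6 for mt-Co2 and 485 ± 68.6 for mt-Co3. The sum for mt-Co1 was 822 ± 54.5 and for mt-Nd4l 743 ± 123. Only the copies in the block described above were added. Of the shared windows counted above, mt-Co1 had 411 in common with Gm13340, beside 430 with Gm29216. Likewise, mt-Co2 had 224 in common with Gm13341, beside 632 with Gm28661. The counts of Gm13340 and Gm13341 were not added, so the sums for mt-Co1 and mt-Co2 may be incomplete. The sum remained at 16.9 ± 3.10 for mt-Nd3. The level of mt-Atp8, which has no annotated copy, was 10.1 RPKM although its last 43 bases are also the first bases of mt-Atp6. Reads within that overlap, at MT:7927-7969, cannot be assigned to either gene, and the stretch is printed because it joins the lowest and the highest of these summed levels (start codon of mt-Atp6 and stop codon of mt-Atp8 in capitals).
mt-Atp8 and mt-Atp6 overlap: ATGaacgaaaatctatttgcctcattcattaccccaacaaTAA

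**Figure D1:**
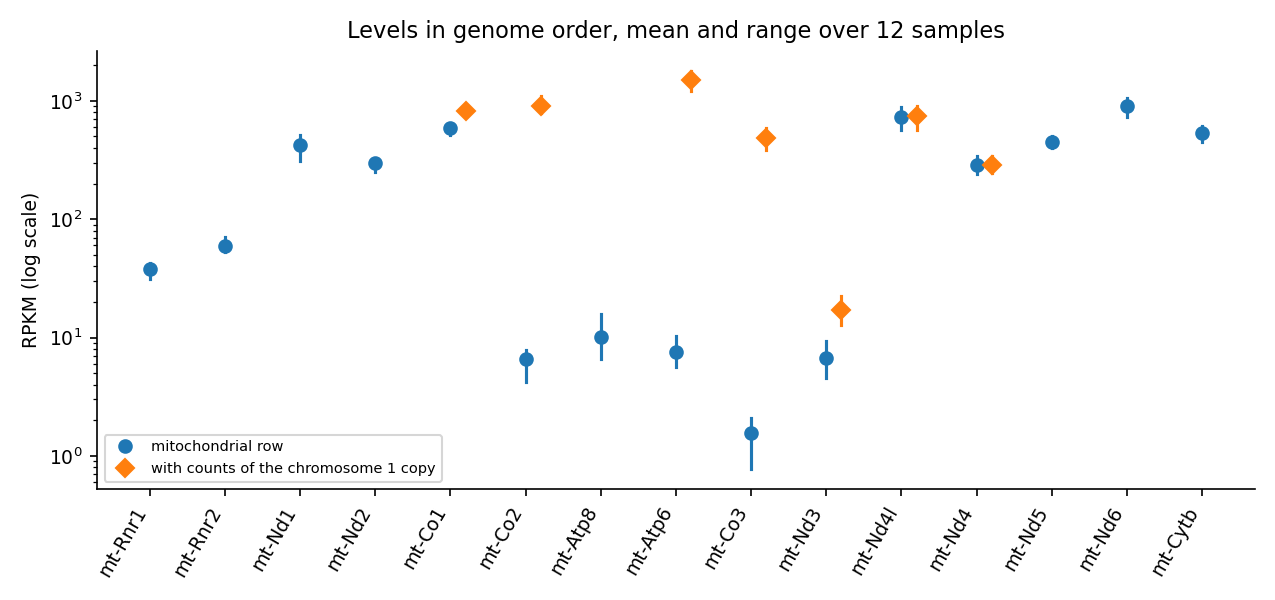
Levels of the 13 mRNAs and 2 rRNAs in genome order, in RPKM on a log scale. Circles are means of the mitochondrial row and diamonds means after the counts of the chromosome 1 copy were added, with lines from the lowest to the highest of 12 samples. The run from mt-Co2 to mt-Nd3 stands at 1.57 to 10.1 RPKM on the mitochondrial rows, and mt-Co2, mt-Atp6 and mt-Co3 stand at 907, 1498 and 485 with the copies.

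All 36 genes together held a small share of the counts. The share of all counts in the sample was 0.381%, 0.428% and 0.402% with PBS (replicates 3, 5 and 6), 0.369%, 0.468% and 0.474% with TCA (replicates 3, 4 and 5), 0.420%, 0.492% and 0.459% with Tβ-MCA, and 0.395%, 0.468% and 0.441% with GCA. The groups overlapped in every comparison, and replicate 3 was the lowest sample of each of the 4 groups. The means were 0.404% ± 0.0233 for PBS, 0.437% ± 0.0587 for TCA, 0.457% ± 0.0357 for Tβ-MCA and 0.434% ± 0.0369 for GCA (SD, n = 3). The 95% Wilson intervals of the single shares were at most 0.00229 percentage points to either side, for counting error only, so the spread between replicates was far wider than counting error. Of the mitochondrial counts, complex I mRNAs held 57.4% to 61.8%, complex IV 19.9% to 23.6%, complex III 13.3% to 14.8%, complex V 0.134% to 0.205%, the rRNAs 2.75% to 3.32% and the tRNAs 1.24% to 1.58% over the 12 samples. With the copies added, complex I held 37.6% to 40.2%, complex IV 32.2% to 35.8%, complex V 13.9% to 16.1% and complex III 8.53% to 9.56%, and the whole share was 0.573% to 0.775% of all counts. The order of the complexes thus differed between the mitochondrial rows and the sums, with complex V below complex III on the rows and above it in the sums. In bulk RNA, a difference in mitochondrial RNA per cell and a difference in the share of cells rich in it cannot be told apart.

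**Figure D2:**
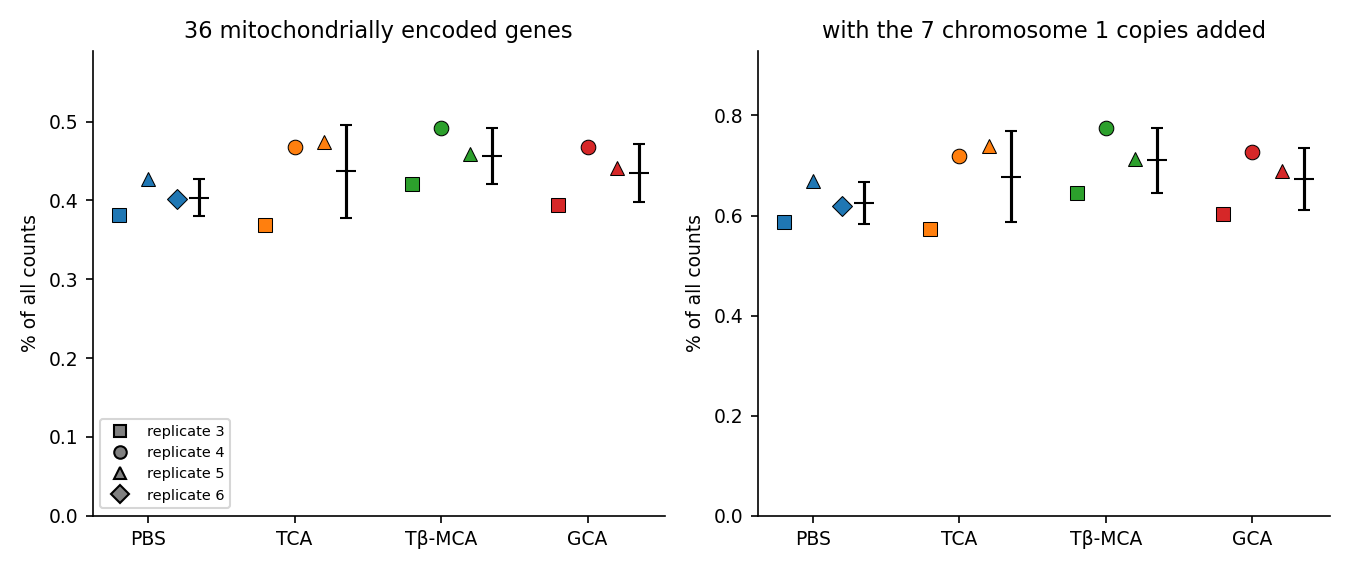
Share of all counts, in percent, held by the 36 mitochondrially encoded genes (left) and by these with the 7 chromosome 1 copies (right). Symbols are samples by replicate number, and bars are the mean and SD of 3 samples. Replicate 3 (squares) is the lowest sample of each group, and the groups overlap, with PBS at 0.381% to 0.428% and Tβ-MCA at 0.420% to 0.492% on the left.

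The position of replicate 3 was shared by single genes. On the scale of CPM after TMM scaling, used for all values by sample from here on, replicate 3 was the lowest sample in all 4 groups for 7 of the 13 mRNAs, namely mt-Nd1, mt-Nd4l, mt-Nd4, mt-Nd5, mt-Nd6, mt-Cytb and mt-Atp6. For mt-Nd1, mt-Nd4l, mt-Nd6 and mt-Cytb, the 4 samples of replicate 3 lay below all 8 others. The share of mt-Co1 among mitochondrial counts ran the other way, at 20.9% to 23.4% in the samples of replicate 3 and at 19.8% to 20.6% in the others, and the share of complex I mRNAs was 57.4% to 59.4% against 60.3% to 61.8%. Total counts were 32757389 to 36109553 in the samples of replicate 3 and 34205621 to 41375925 in the others. The labels do not say whether a replicate number marks a shared mouse or preparation, and the pattern was noticed in the data and was not tested.

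Tβ-MCA was compared with PBS to ask whether the bile acid changed the levels of the mitochondrially encoded RNAs. Of the 36 genes, 31 passed the filter on low counts, and 5 tRNA genes (mt-Tf, mt-Ti, mt-Tk, mt-Th and mt-Ts2) did not. With the quasi-likelihood test of edgeR, 0 of the 31 passed a Benjamini-Hochberg adjusted p under 0.05, where 7.62% of the 16761 genes tested did. At an unadjusted p under 0.05 there were 7 members, all higher with Tβ-MCA, or 22.6% of the 31 against 24.9% of all genes tested. These were mt-Co1, mt-Nd4 and mt-Atp6 and the tRNAs mt-Tm, mt-Tw, mt-Tc and mt-Tl2, a share close to that of all genes. In 7 members, all higher with Tβ-MCA, the groups did not overlap, against 27.0% of all genes. The fitted log2 fold change was above 0 for 31 of 31 members, with a median of 0.20, and for 13 of 13 mRNAs, with a median of 0.12, while over all genes 50.6% were above 0 and the median was 0.0041. With the copies added, 12 of 13 mRNAs were above 0, and of the 15 mRNAs and rRNAs 6 fell below 0 in at least 1 alternative fit. The members share the samples and the replicate 3 pattern, so these counts are a description.

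In this comparison mt-Co1 came nearest to the threshold. Its CPM was 817, 863 and 803 with PBS, 964, 977 and 911 with Tβ-MCA, 857, 927 and 950 with TCA, and 898, 937 and 919 with GCA. The 3 samples with Tβ-MCA and the 3 with GCA lay above all PBS samples, and TCA overlapped PBS by 1 sample. The fold change of Tβ-MCA over PBS was 1.15 (log2 fold change 0.20, SE 0.061, adjusted p = 0.0565, edgeR). The adjusted p of mt-Co1 was 0.0312 with total library sizes (8.40% of all genes called), 0.0149 with DESeq2 (13.8%), 0.0497 with limma on log2(RPKM + 1) (6.17%) and 0.025 with edgeR without Tβ-MCA replicate 5 (18.0%), where mt-Tm also passed (adjusted p = 0.0311). With total library sizes the median log2 fold change of all genes was 0.052, against 0.0041 with TMM scaling. That of mt-Co1 was 0.25 with total library sizes, and 0.25 with limma on RPKM, which is scaled by total counts too. The adjusted p of mt-Co1 ranged from 0.0149 to 0.206 over 17 alternatives. With the counts of Gm29216 added it was 0.1002, and the fold change was 1.12 (log2 0.16, SE 0.060). The counts of Gm13340, which also shares windows with mt-Co1, were not added. Without a filter on low counts, edgeR called mt-Nd4l, mt-Tm and mt-Tl2 (8.09% of all genes). At the thresholds of an unadjusted p under 0.05 and a fold change of 2, which the study's methods name, 1 member passed, mt-Tw, against 2.95% of all genes.

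**Figure D3:**
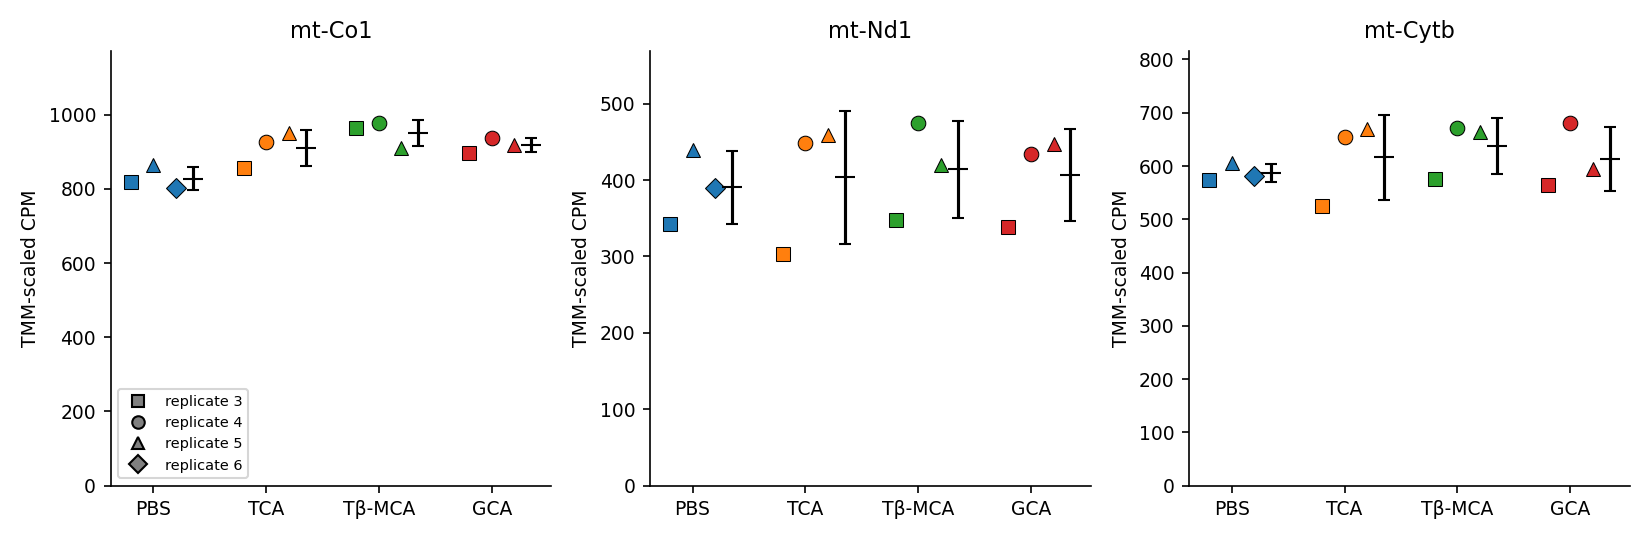
TMM-scaled CPM of mt-Co1, mt-Nd1 and mt-Cytb in every sample by group. Symbols are samples by replicate number, and bars are the mean and SD of 3 samples. For mt-Co1 the Tβ-MCA and GCA samples lie above the PBS samples, while for mt-Nd1 and mt-Cytb the squares of replicate 3 are the lowest of each group and the groups overlap.

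The complex I mRNAs, whose products form the membrane arm of NADH dehydrogenase, were 7 of the 13. The CPM of mt-Nd1 was 343, 439 and 390 with PBS, 303, 449 and 459 with TCA, 348, 474 and 419 with Tβ-MCA, and 338, 434 and 448 with GCA. Within each group replicate 3 was below the others, and the groups overlapped widely. The CPM of mt-Nd4 was 343, 389 and 354 with PBS, 346, 427 and 433 with TCA, 379, 457 and 415 with Tβ-MCA, and 351, 411 and 406 with GCA. With Tβ-MCA 2 of 3 samples stood above the highest PBS sample, and the log2 fold change was 0.21 (SE 0.095, adjusted p = 0.192, edgeR). The CPM of mt-Nd4l was 181, 207 and 199 with PBS and 193, 257 and 258 with Tβ-MCA, and the log2 fold change was 0.27 (SE 0.16, adjusted p = 0.343, edgeR). The remaining complex I mRNAs, mt-Nd2, mt-Nd3, mt-Nd5, mt-Nd6 and mt-Nd1, had log2 fold changes of 0.04 to 0.08 with Tβ-MCA. With the copies added, the value of mt-Nd3 turned from 0.04 to -0.08.

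In complex III, the CPM of mt-Cytb was 574, 606 and 581 with PBS, 525, 654 and 670 with TCA, 576, 672 and 664 with Tβ-MCA, and 565, 680 and 594 with GCA. All groups overlapped, and the log2 fold changes against PBS were 0.12 (SE 0.094) with Tβ-MCA, 0.07 with TCA and 0.06 with GCA. In complex IV, mt-Co2 and mt-Co3 were at 2.91 to 5.29 CPM and 0.62 to 1.66 CPM over all samples. With their copies added they stood at 592 ± 49.7 and 341 ± 34.9 CPM with PBS and at 654 ± 79.3 and 402 ± 50.5 CPM with Tβ-MCA (SD, n = 3). These differences had log2 fold changes of 0.14 (SE 0.095, adjusted p = 0.375, edgeR) and 0.24 (SE 0.13, adjusted p = 0.288, edgeR).

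In complex V, mt-Atp6, a subunit of the proton channel, and mt-Atp8, an accessory subunit, were also low. The CPM of mt-Atp6 was 3.93, 4.50 and 4.91 with PBS, 4.44, 5.08 and 6.09 with TCA, 5.32, 6.75 and 5.78 with Tβ-MCA, and 4.62, 5.96 and 4.64 with GCA. All Tβ-MCA samples lay above all PBS samples, with a log2 fold change of 0.42 (SE 0.16, adjusted p = 0.117, edgeR). These values rest on 137 to 250 counts per sample, 0.508% of the pair's counts. With the counts of Gm10925 added, the levels were 953 ± 106 CPM with PBS and 1054 ± 143 CPM with Tβ-MCA, the groups overlapped, and the log2 fold change was 0.14 (SE 0.15, adjusted p = 0.593, edgeR). The CPM of mt-Atp8 was 1.72, 2.21 and 1.59 with PBS and 1.56, 3.05 and 2.30 with Tβ-MCA, which overlapped.

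The rRNAs of the mitochondrial ribosome did not pass the test in any comparison. The CPM of mt-Rnr2 was 95.01, 95.3 and 94.2 with PBS, 89.9, 95.4 and 97.8 with TCA, 99.3, 107.6 and 91.5 with Tβ-MCA, and 93.9, 90.6 and 84.7 with GCA. The PBS samples lay very close together, all GCA samples were below them, and TCA and Tβ-MCA overlapped them. The log2 fold change of mt-Rnr2 was 0.07 (SE 0.068) with Tβ-MCA and -0.08 (SE 0.069) with GCA, with adjusted p-values of 0.580 and 0.999 by edgeR. For mt-Rnr1, at 30.3 to 40.2 CPM over all samples, the log2 fold changes against PBS were 0.06 with Tβ-MCA, 0.04 with TCA and -0.05 with GCA.

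The tRNA genes carried few counts. The 3 with the highest mean were mt-Ty (tyrosine), with 699 to 952 counts per sample, mt-Tm (methionine), with 256 to 461, and mt-Te (glutamate), with 130 to 274. On the RPKM scale mt-Ty stood at 337 ± 27.1, mt-Tm at 137 ± 23.3 and mt-Te at 79.4 ± 18.4, while mt-Tk never exceeded 2 counts and mt-Tf never exceeded 3. The 8 tRNA genes on the minus strand had a median of 2.05 CPM of the total count, and the 13 on the plus strand a median of 0.236. All 3 leading genes are printed whole, with mt-Tl2 (leucine), because their values are described here (GENCODE vM21, GRCm38, 5′ to 3′ on their own strand). They lie at MT:5260-5326 (minus strand), MT:3845-3913 (plus), MT:14071-14139 (minus) and MT:11671-11741 (plus).
mt-Ty: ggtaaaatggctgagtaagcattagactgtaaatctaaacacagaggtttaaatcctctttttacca
mt-Tm: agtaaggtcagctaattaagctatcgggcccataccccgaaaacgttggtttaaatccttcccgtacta
mt-Te: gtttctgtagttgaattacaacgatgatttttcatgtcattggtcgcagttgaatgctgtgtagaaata
mt-Tl2: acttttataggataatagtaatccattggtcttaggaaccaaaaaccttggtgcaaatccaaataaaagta
The library kit marks the strand, but the sources used here do not say whether the counting used it, and without it reads from a tRNA on one strand and from a precursor of the other strand cannot be told apart. The same holds for mt-Nd6, the only mRNA on the minus strand.

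The tRNA values with PBS and Tβ-MCA were as follows. The CPM of mt-Tm was 9.35, 7.92 and 7.44 with PBS and 11.7, 11.4 and 9.74 with Tβ-MCA, so all Tβ-MCA samples were higher, with a log2 fold change of 0.41 (SE 0.14, adjusted p = 0.0793, edgeR). The CPM of mt-Ty was 24.5, 21.4 and 20.8 with PBS and 26.1, 22.9 and 22.3 with Tβ-MCA, which overlapped, as did mt-Te at 3.90, 6.12 and 5.12 against 3.98, 7.02 and 5.06. Of the others, mt-Tl2, named after its values were seen, stood at 0.574, 0.471 and 1.32 CPM with PBS and at 1.496, 1.59 and 1.53 CPM with Tβ-MCA. One PBS sample was thus close to the Tβ-MCA samples, and the log2 fold change was 0.95 (SE 0.36, adjusted p = 0.118, edgeR) on 16 to 59 counts per sample. The CPM of mt-Tw, also named after its values were seen, was 0.143, 0.589 and 0.701 with PBS and 1.08, 1.13 and 0.857 with Tβ-MCA. It rests on 5 to 42 counts per sample, with a log2 fold change of 1.09 (SE 0.44, adjusted p = 0.140, edgeR).

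TCA was compared with PBS to ask the same of the taurine conjugate of cholic acid. Of the 31 members, 0 passed an adjusted p under 0.05 by edgeR, as did 0% of all genes tested, and by DESeq2 and limma no member passed either. At an unadjusted p under 0.05 there was 1 member, mt-Co1, against 3.26% of all genes, with a fold change of 1.10 (log2 0.14, SE 0.061, adjusted p = 0.9999, edgeR). With the copies added, 0 of 13 mRNAs had an unadjusted p under 0.05, and the log2 fold change of mt-Co1 was 0.12 (SE 0.060). The groups did not overlap for 2 members, mt-Ts1 and mt-Tr, against 9.67% of all genes. The log2 fold change was above 0 for 26 of 31 members, with a median of 0.15, and for 12 of 13 mRNAs.

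GCA was compared with PBS in the same way. No member of the 31 passed an adjusted p under 0.05 by edgeR, DESeq2 or limma, and 0% of all genes did by edgeR. At an unadjusted p under 0.05 there was again 1 member, mt-Co1, against 3.53% of all genes, with a fold change of 1.11 (log2 0.15, SE 0.061, adjusted p = 0.999, edgeR). Here too 0 of 13 mRNAs had an unadjusted p under 0.05 with the copies added, with mt-Co1 at a log2 fold change of 0.12 (SE 0.060). The groups did not overlap for 3 members, against 9.55% of all genes. These were mt-Co1 and mt-Tp, which were higher with GCA, and mt-Rnr2, which was lower. The log2 fold change was above 0 for 24 of 31 members, with a median of 0.08, and for 11 of 13 mRNAs. All 3 comparisons with a bile acid share the same 3 PBS samples.

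GCA and TCA, both at 200 μM, carry glycine and taurine on the same cholic acid, and they were the only pair of bile acids compared, since the doses given for Tβ-MCA differ. No difference between them was found among the 31 members at an adjusted p under 0.05 by edgeR (0% of all genes), DESeq2 or limma, and at an unadjusted p under 0.05 there were 0 members against 2.46% of all genes. The groups overlapped in all 31 members, where they did not in 8.0% of all genes. For mt-Co1 the log2 fold change of GCA over TCA was 0.01 with a 95% confidence interval of -0.12 to 0.14, and for mt-Cytb it was -0.01 with an interval of -0.21 to 0.19. The interval was wider for mt-Nd1, at -0.38 to 0.40 around 0.01, and widest among the mRNAs for mt-Co3, at -0.69 to 0.65. The largest difference of an mRNA was that of mt-Atp8, at -0.49 (interval -1.10 to 0.12), on 51 to 118 counts per sample.

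**Figure D4:**
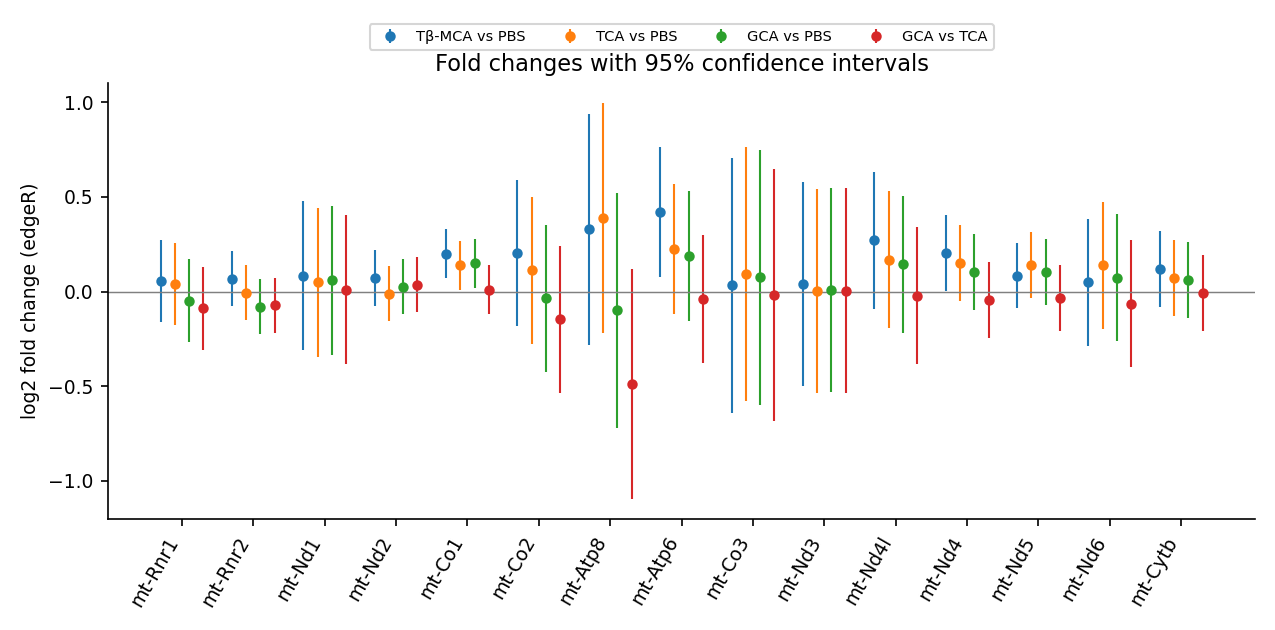
Log2 fold changes from edgeR with 95% confidence intervals for the 13 mRNAs and 2 rRNAs in genome order, in 4 comparisons. For mt-Co1 the intervals against PBS lie above 0 with each bile acid (0.07 to 0.33 with Tβ-MCA, 0.01 to 0.27 with TCA and 0.02 to 0.28 with GCA), while GCA against TCA spans 0. With the counts of Gm29216 added to mt-Co1, which are not plotted, the intervals span 0 for TCA (-0.01 to 0.24) and GCA (-0.01 to 0.25). No adjusted p was under 0.05.

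Nuclear genes that serve the mitochondrial genome were read from lists written by hand. Of 18 genes of mitochondrial DNA transcription and replication, 0 passed an adjusted p under 0.05 by edgeR in any of the 4 comparisons, and the median log2 fold change with Tβ-MCA was 0.09. Of 30 tested genes of mitochondrial RNA processing, stability and decay, 2 rose and 1 fell with Tβ-MCA, where 7.62% of all genes passed, and 0 passed in the other comparisons. Grsf1, a binding protein of mitochondrial RNA granules, was at 39.7, 32.1 and 36 CPM with PBS and 52.5, 48.5 and 40.2 CPM with Tβ-MCA, which did not overlap (log2 fold change 0.39, SE 0.11, adjusted p = 0.0411, edgeR). Ptcd3, a protein of the small subunit of the mitochondrial ribosome, was at 15.7, 17.4 and 17.2 CPM with PBS and 21.8, 21.7 and 20.6 CPM with Tβ-MCA (log2 0.35, SE 0.094, adjusted p = 0.0391, edgeR). Rexo2, an exonuclease that degrades short RNA in mitochondria, fell from 39.7, 41.8 and 45.2 CPM to 27.4, 31.1 and 37.7 CPM, and for Ptcd3 and Rexo2 too the groups did not overlap (log2 -0.40, SE 0.10, adjusted p = 0.0322, edgeR). Of 9 tested regulators of mitochondrial biogenesis, 1 fell with Tβ-MCA and 0 rose, beside the same 7.62% of all genes. This was Myc, a transcription factor of growth, at 8.03, 6.03 and 4.77 CPM with PBS and 2.93, 2.13 and 3.61 CPM with Tβ-MCA (log2 -1.12, SE 0.23, adjusted p = 0.0208, edgeR). These 4 calls were lost in a fit without the TCA and GCA samples (edgeR adjusted p of 0.0908 for Grsf1, 0.0761 for Ptcd3, 0.0889 for Rexo2 and 0.0576 for Myc), where 0 of all genes passed. With 1 sample left out, Grsf1, Ptcd3 and Rexo2 passed in 1 of 6 fits, the one without Tβ-MCA replicate 5, and Myc in 2 of 6, without that sample and without PBS replicate 6.

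The nuclear partners of the mitochondrially encoded subunits did not pass the test in any comparison. Of 71 nuclear subunits of complexes I, III, IV and V, 0 passed an adjusted p under 0.05 by edgeR (7.62% of all genes with Tβ-MCA and 0% in the others), and the median log2 fold change was -0.05 with Tβ-MCA, -0.04 with TCA and -0.05 with GCA, with 21, 16 and 15 of the 71 above 0. In these comparisons 13, 12 and 11 of the 13 mitochondrially encoded mRNAs were above 0, or 12, 12 and 11 with the copies added, as were 50.6%, 50.2% and 50.3% of all genes. The difference between the nuclear and the mitochondrial subunits was not tested. The lowest p values with Tβ-MCA were those of Ndufa8, an accessory subunit of complex I, at 76.1 ± 5.74 CPM with PBS and 91.9 ± 5.96 CPM with Tβ-MCA (adjusted p = 0.0659, edgeR), and of Cox7a2, a subunit of complex IV, at 12.8 ± 0.804 and 10.0 ± 1.54 CPM (adjusted p = 0.0734, edgeR). Of the 4 genes of complex II, which has no mitochondrially encoded subunit, 0 passed in any comparison, and their median log2 fold change was 0.07 with Tβ-MCA.

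Cell type markers were read in the same samples, and some differed between Tβ-MCA and PBS. The summed CPM of the 12 neutrophil markers was 48020 to 58287 with PBS, 46113 to 55165 with TCA, 44645 to 53499 with GCA and 39780 to 44557 with Tβ-MCA, and 4 of the 12 (Ly6g, Mmp9, S100a8 and Camp) fell with Tβ-MCA by edgeR, beside 7.62% of all genes. These calls too were lost without the TCA and GCA samples, and with 1 sample left out they passed without Tβ-MCA replicate 5, as Ly6g did without PBS replicate 6, and in no other of the 6 fits. The sum of the 12 monocyte and macrophage markers was 1422 to 1564 with PBS and 519 to 1268 with Tβ-MCA, where 0 of 12 passed the adjusted test and 6 were lower at an unadjusted p under 0.05, beside 24.9% of all genes. Tβ-MCA replicate 5 stood apart here, with 29.2 CPM of Ccr2, a monocyte chemokine receptor, against 2.03 and 2.70 in replicates 3 and 4 and 37.3 to 51.2 with PBS. The 5 eosinophil markers summed to 136 to 235 with PBS and 55.7 to 125 with Tβ-MCA. The B cell markers summed to 40.7 to 55.7 and 39.2 to 43.3, which overlapped. Those of T and NK cells summed to 2.13 to 3.38 and 1.86 to 1.90, which did not. The sums also overlapped for basophils and mast cells (26.6 to 48.9 and 27.1 to 51.8) and for erythroid cells (1.48 to 2.66 and 1.83 to 2.45). Those of megakaryocytes and platelets were 27.4 to 28.51 and 28.54 to 30.4, which did not overlap. Over all groups, the basophil and mast cell sums were 48.9 to 51.8 in the samples of replicate 3 and 25.6 to 31.1 in the others. The sums of every other list overlapped between these sets of samples. Within each group, though, the B cell sum was highest in replicate 3 (43.3 to 56.9, against 38.9 to 45.2 in the other samples). The neutrophil, eosinophil, and megakaryocyte and platelet sums were highest there with PBS, TCA and GCA but not with Tβ-MCA. The remaining lists were highest there in no group, and none of this was tested. Among the smaller lists, 1 of 7 tested B cell markers (Cd79a) and 1 of 5 eosinophil markers (Siglecf) passed the test, beside 7.62% of all genes. Both were lower with Tβ-MCA (adjusted p = 0.0326 each, edgeR). In the fit without the TCA and GCA samples, 0 of all genes passed. The part of these cell types in the mitochondrial values was not tested.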

How the data were processed

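The authors trimmed the reads with Trimmomatic 0.36, and STAR 2.5.3a and featureCounts of Subread 1.5.1 are named in the submitters' processing notes with the builds GRCm38 and mm10. The authors deposited raw counts per gene and RPKM values. RPKM recalculated from the counts differed by a relative 1.3e-06 at most. Total counts were 32757389 to 41375925, and 3 counts, the least treated as detected, were 0.0725 to 0.0916 CPM.

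All 12 samples were fitted with edgeR 4.0.16 (R 4.3.3) by its robust quasi-likelihood test, with TMM scaling and filterByExpr by group, which left 16761 genes, and p-values were adjusted over all of them by Benjamini-Hochberg. SEs were the log2 fold change divided by the square root of F. Alternatives were DESeq2 1.42.0, limma 3.58.1 on log2(RPKM + 1) of genes whose mean RPKM reached 0.5, other library sizes and filters, only the groups compared, the replicate block, the study's thresholds and leaving out each sample. Adding the copies was chosen after seeing the data, and only the copies in the block described above were added. The script was tested on simulated data. Sequences came from GENCODE vM21 transcripts. Figures and summaries used Python 3.11.15.

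The choice to study these members, and the lists, was made with earlier results of these data known. Position alone set which genes were members. All mRNAs and rRNAs are named, with the 3 tRNAs of the highest mean CPM and any at an adjusted p under 0.05. Outside that rule, mt-Tw, mt-Tc, mt-Tl2, mt-Ts1, mt-Tr and mt-Tp are named after their values were seen. They had an unadjusted p under 0.05 or groups that did not overlap. The tRNAs that failed the filter are named as well. Of each nuclear list, up to 5 genes in each direction past that threshold are named, or else up to 2 with the lowest p.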

Additional observations from a re-analysis of the deposited data

How the results depend on the processing

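The count of 0 mitochondrially encoded genes at an adjusted p under 0.05 was the same under every alternative fit run for TCA against PBS, GCA against PBS and GCA against TCA. For Tβ-MCA against PBS it was 1 with total library size (mt-Co1), 1 with DESeq2 (mt-Co1), 1 with limma on log2(RPKM + 1) (mt-Co1), 1 at the study's thresholds (mt-Tw), 3 without a filter, and 0 to 2 when 1 sample was left out, with 2 (mt-Co1 and mt-Tm) without Tβ-MCA replicate 5. With the replicate number as a block it was 1 (mt-Tl2, adjusted p = 0.0248, edgeR), and 1 with the block and the copies added. Same-numbered samples of different groups correlated in their deviations from the group means at r = 0.0597 to 0.326 over 15 pairs (mean 0.189, and 0.197 to 0.326 for the 6 pairs of replicate 3), and differently numbered ones at a mean of -0.0716 over 39 pairs. All 15 same-numbered values were above 0, but not every one was above 0.1, the limit used for pairing. Of the GCA and TCA samples, 4 of 6 correlated best with their own number. By that limit the main fit had no block, and a part shared by same-numbered samples was not tested. The difference in mitochondrial share, Tβ-MCA minus PBS, was 0.0532 percentage points, 0.0387 with TMM library sizes and 0.0854 with the copies added. Leaving out 1 sample gave 0.0358 to 0.0715. For TCA minus PBS it was 0.0332 (0.0147 to 0.067 with 1 sample left out), for GCA minus PBS 0.0308 (0.0142 to 0.0507) and for GCA minus TCA -0.0023 (-0.0362 to 0.0175). Over all genes, the 1278 calls of Tβ-MCA against PBS became 2035 with DESeq2, 2406 without a filter, 861 with limma and 0 with only both groups fitted, and 0 to 3076 with 1 sample left out. Without a filter 37, 36 and 42 genes were called in the other comparisons. The fold changes of the 15 mRNAs and rRNAs changed sign in 16, 22, 33 and 41 of 255 alternative values in the 4 comparisons, all in genes that were not called, and the cause was not tested.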
